A study of Homo sapiens with 8 samples.

Results

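The data were the 4147 genomic regions (peaks) at which HA-tagged PHF20 was enriched over its input in U2OS cells, an osteosarcoma line, out of 4870 peaks in the 2 lists of the series. All peaks of the PHF20 list were taken, and none was left out. The list came from 2 HA ChIP-Seq libraries and 1 input library of cells over-expressing PHF20 with an N-terminal 3xHA tag, and both the ChIP and the input cells carried that construct. The other list, of PHF20L1, a related protein, holds 723 peaks from cells with 3xHA PHF20L1 and is used only as context.

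The design sets limits on what a peak stands for. The antibody read the HA tag and not endogenous PHF20, the protein was supplied ectopically, the cells were GFP sorted for enrichment of the tag, and no library of untagged cells was analysed here. Another PHF20 replicate had been set aside by the study after peak calling. The remaining replicates were joined into 1 list of start and end positions, so a peak has a place and a width but no height, no read count and no replicate error. Intervals below are Wilson 95% intervals unless stated and cover counting error only. No expression values accompany the list, so the identity of the cells could not be checked against markers.

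PHF20 is a reader of methylated lysine. It carries a pair of Tudor domains and a PHD finger and is a subunit of the NSL (nonspecific lethal) complex, in which the acetyltransferase KAT8, also called MOF, acetylates histone H4. The complex is known for binding the promoters of housekeeping genes, that is, genes that nearly every cell uses. Most such promoters are rich in CpG dinucleotides, lack a TATA box and often fire in both directions.

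The sequences below show what the DNA under these peaks looked like, read from hg38 with the named motif in capitals. The first set holds the ETS core, ACTTCCGG on either strand, the letters recognised by GABPA, ELK and other ETS factors. It lies upstream of NUDCD3, a cochaperone, of UQCRH, a subunit of respiratory complex III, and of RAD50, a protein of double-strand break repair, and each stretch is given on the strand of its gene at chr7:44490682-44490749 (minus), chr1:46303621-46303688 (plus) and chr5:132556856-132556923 (plus).
NUDCD3: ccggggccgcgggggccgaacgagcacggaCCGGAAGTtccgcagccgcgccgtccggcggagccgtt
UQCRH: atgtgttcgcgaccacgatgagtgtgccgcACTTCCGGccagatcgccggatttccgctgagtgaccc
RAD50: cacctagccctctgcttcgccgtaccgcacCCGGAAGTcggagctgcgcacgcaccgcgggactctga
The motif centre stood 58 bp before the canonical transcription start site (TSS) of NUDCD3, 43 bp before that of UQCRH and 87 bp before that of RAD50.

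The second set holds the palindromic E-box CACGTG, read by MYC, USF and the MiT factors. It is shown for LAMP1, a lysosomal membrane protein with the widest coding promoter peak of the list, at chr13:113297067-113297132 (plus), and for ZFYVE26, a protein of autophagy and lysosome reformation, at chr14:67816677-67816742 (minus).
LAMP1: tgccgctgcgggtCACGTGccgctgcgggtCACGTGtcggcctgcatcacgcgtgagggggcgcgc
ZFYVE26: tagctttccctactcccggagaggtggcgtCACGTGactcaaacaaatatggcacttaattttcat

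The third set holds rarer letters. ATP5F1C, a subunit of ATP synthase, carried the ZBTB33 element TCTCGCGA at chr10:7788043-7788110 (plus), and MED18, a subunit of Mediator, carried the cyclic AMP response element TGACGTCA, a palindrome, at chr1:28328804-28328871 (plus). GPATCH3 and COMMD10 carried AAGATGGC, the letters of YY1, across the start codon, at chr1:26900427-26900456 (minus) and chr5:116085039-116085068 (plus).
ATP5F1C: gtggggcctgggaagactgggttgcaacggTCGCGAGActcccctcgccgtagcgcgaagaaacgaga
MED18: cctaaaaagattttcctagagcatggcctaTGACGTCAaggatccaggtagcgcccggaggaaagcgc
GPATCH3: tgtgacaatccAAGATGGCggtgcccggcg
COMMD10: cgagaaagccgAAGATGGCggtccccgcgg

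The last set shows the DNA between the TSSs of divergent gene pairs, where 1 peak covered both starts, on the plus strand with the ETS core in capitals. POLDIP2 and TMEM199 face away from each other at chr17:28357528-28357641, and ZNF668 and ZNF646 at chr16:31074241-31074421.
POLDIP2/TMEM199: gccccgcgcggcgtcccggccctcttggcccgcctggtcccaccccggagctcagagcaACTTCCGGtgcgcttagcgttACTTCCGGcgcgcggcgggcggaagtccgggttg
ZNF668/ZNF646: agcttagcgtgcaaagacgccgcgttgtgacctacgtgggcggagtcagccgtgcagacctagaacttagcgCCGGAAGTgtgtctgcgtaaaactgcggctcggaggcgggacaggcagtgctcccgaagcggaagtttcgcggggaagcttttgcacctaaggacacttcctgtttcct

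PHF20 peaks lay at the promoters of protein-coding genes. With a promoter defined as 1000 bp before to 500 bp after the TSS of any transcript in GENCODE, 3562 peaks (85.9%, interval 84.8 to 86.9) touched a coding promoter, 266 (6.41%) touched only a promoter of another gene class, and 319 (7.69%) touched neither. Coding promoter peaks were the widest of the 3 classes, with a median of 635 bp against 527.5 bp and 331 bp, and their CpG observed/expected ratio over 500 bp had a median of 0.827, against 0.741 and 0.529. Of the bases under coding promoter peaks, 9.86% were coding sequence, 14.5% other exons, 49.2% the rest of coding genes and 26.5% lay outside coding genes.

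The peaks marked 4148 of 20033 protein-coding genes, or 20.7% (interval 20.15 to 21.3). Most peaks belonged to 1 gene: 2755 coding promoter peaks touched 1 coding gene, 744 touched 2, 60 touched 3 and 3 touched 4. Most bound genes had 1 peak (3864), 281 had 2, and 3 had 3 separate promoter peaks. These 3 were RAD9A, a DNA damage clamp subunit, HEXIM1, an inhibitor of P-TEFb, and PUM2, an RNA-binding repressor. Genes with 2 peaks, which can stand at the starts of different transcripts, included SRSF11, a splicing factor, with 2510 bp in all and 1341 bp for the wider peak. PSMC2, a proteasome ATPase, had 2341 bp in all and 1261 bp for the wider, and NDUFS3, of respiratory complex I, 2290 bp and 1364 bp.

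Genes without a peak included many whose promoter sequence occurs more than once in hg38. The study retained only reads with a unique place in hg38, and the hg38 sequence file used here holds 455 sequences, 261 of them alternate contigs that repeat stretches of the chromosomes. For each coding gene, the 50-base words of the 500 bp at its TSS were searched across the chromosomes and the alternate contigs, 50 bases being the read length. Of 814 coding promoters with at least 50% of their words on an alternate contig, 0 had a peak (upper limit 0.369% from 3 counts). Of 562 with at least 50% of their words repeated on the chromosomes, 6 had a peak (1.07%), CCZ1 and its copy CCZ1B among them. The remaining 18657 promoters were bound at 22.2% (interval 21.6 to 22.8). Whether the authors' index held these contigs is not given in the sources used here, and the part that unplaced reads had in these zeros was not tested.

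The zeros included promoters of high CpG content and genes of the core machinery. Among promoters of high CpG content, 0 of 283 with such copies had a peak, against 3121 of 10119 (30.8%) without repeated words. The step was sharp: 28 of 84 high-CpG promoters (33.3%, interval 24.2 to 43.95) with some words, but under 50%, on an alternate contig were bound, and 0 of 37 with 50% to 90% and 0 of 246 with 90% or more were. Core machinery genes with such copies included the ribosomal protein genes RPS9 and RPS18, and the splicing genes PRPF8 and PRPF31. Others were the tRNA synthetase genes VARS1, VARS2 and CARS1, TAF9 and TAF15 of the general transcription machinery, and KANSL1, the NSL scaffold. Unbound genes with such copies and unbound genes without them cannot be told apart in the list itself.

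Divergent promoters were marked more often than single ones. A promoter was called divergent if a TSS on the opposite strand lay within 1000 bp upstream. PHF20 marked 883 of 1895 coding genes with a coding partner (46.6%, interval 44.4 to 48.85), 577 of 1878 with a lncRNA partner (30.7%, 28.7 to 32.85) and 2641 of 16074 single promoters (16.4%, 15.9 to 17.0). The widest promoter peak of a bound gene had a median of 817 bp, 696 bp and 640 bp in the same order. Promoter windows of divergent genes overlap, so that 1 peak can mark both, and the share was also taken as genes with a peak over the canonical TSS itself. It was then 630 of 1895 (33.2%) with a coding partner and 1636 of 16074 (10.2%) for single promoters.

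The order was the same among promoters of high CpG content. High-CpG promoters, with an observed/expected ratio of at least 0.75 and at least 55% GC over 500 bp, were bound at 49.0% with a coding partner, 33.0% with a lncRNA partner and 25.6% when single. Of 912 head-to-head pairs of coding genes, 431 had a promoter peak (47.3%), and in 373 a peak touched the stretch between the starts. A single peak covered both starts in 233 of these 373 pairs (62.5%, interval 57.45 to 67.2).

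The widest peaks on divergent pairs included those of POLDIP2 with TMEM199 and of ZNF668 with ZNF646, shown above. FAM162A, a mitochondrial protein, and MIX23, a mitochondrial import factor, shared a peak of 1905 bp. ZMYND12 and PPCS, the latter an enzyme of coenzyme A synthesis, shared 1741 bp. RECQL5, a DNA helicase, and SAP30BP, a splicing factor, shared 1641 bp, and FCF1, needed for the small ribosomal subunit, and AREL1, a ubiquitin ligase, shared 1617 bp although their starts lay only 64 bp apart. EMG1, a ribosome biogenesis methyltransferase, and PHB2, a mitochondrial scaffold, shared 1559 bp.

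At most bound coding genes, 2673 of 4148 (64.4%), a peak reached across the canonical TSS. Around bound single promoters, cover by a peak was 28.0% at 500 bp before the canonical TSS, 61.9% at the TSS, reached 69.7% at 150 bp inside the gene and was 29.04% at 500 bp inside. With a coding partner, cover was already 56.9% at 500 bp before the TSS, and its highest value, 72.1%, stood at 50 bp inside the gene. At 500 bp inside the gene, cover was 27.2% with a coding partner, close to that of single promoters.

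**Figure D1:**
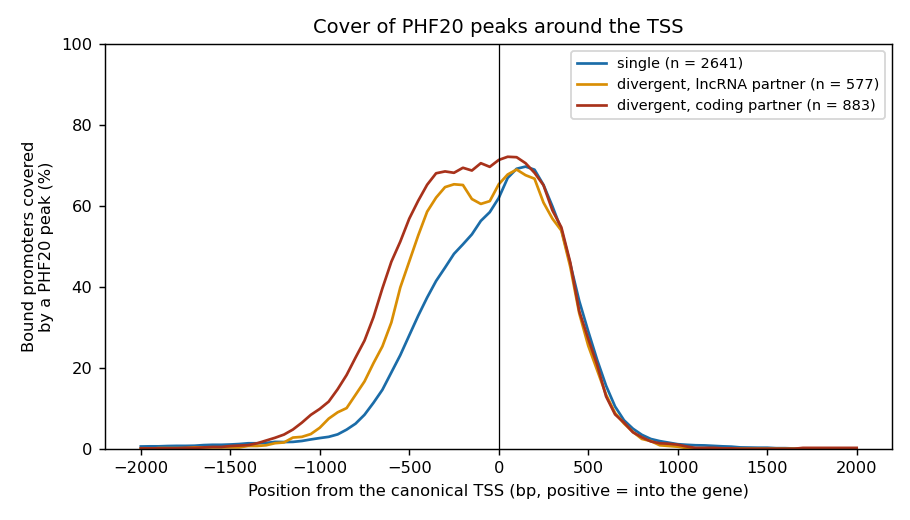
Share of bound promoters (y, percent) covered by a PHF20 peak at each position from the canonical TSS (x, bp, positive into the gene), for single promoters and those with a lncRNA or coding partner; lines are counts over genes without error bars. The lines run together downstream of the TSS and separate upstream, where cover at 500 bp before it was 28.0% for single and 56.9% for coding-partner promoters.

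The classes differed in how far a peak reached upstream of the TSS. Reach was taken where a peak covered the canonical TSS, at 1636 of 2641 bound single promoters and 630 of 883 with a coding partner. Downstream, the median was 430 bp (order-statistic interval 419 to 439) for single promoters and 427 bp (418 to 442) with a coding partner. The upstream reach had a median of 342 bp (318 to 360) for single promoters, 479 bp (440 to 507) with a lncRNA partner and 540.5 bp (511 to 564) with a coding partner. The signed distance from the nearest canonical coding TSS to the peak centre had a median of 37.5 bp (27 to 48) into the gene, and of 4 bp (2 to 8) when the nearest TSS of any transcript was taken.

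Some peaks lay close to each other. In 212 cases neighbouring peaks lay at most 1000 bp apart, with a median gap of 164 bp. The gap itself held a canonical coding TSS in 68 of them (32.1%, interval 26.2 to 38.6), a peak held it in 88, and neither did in 56.

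Bound promoters were mostly of high or intermediate CpG content. PHF20 marked 3124 of 10528 high-CpG promoters (29.7%, interval 28.8 to 30.55), 888 of 4109 intermediate ones (21.6%) and 136 of 5396 with an observed/expected ratio below 0.48 (2.52%, 2.135 to 2.97). With the class taken over 1000 bp before to 500 bp after the TSS, the shares were 28.9%, 27.6% and 2.71%. The gap between high and intermediate promoters thus depended on the window. Most high-CpG promoters had no peak. With genes ranked by length in 5 classes of equal size, the bound share was 11.9% in the shortest, 20.3%, 25.2% and 26.6% in the next, and 19.5% in the longest, from 90680 bp upwards. Among high-CpG promoters the shares in the same order were 26.5%, 31.9%, 33.8%, 32.7% and 23.2%. Genes whose canonical transcript has 1 exon were bound at 7.52% (84 of 1117), and those with more exons at 21.5%.

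Families of the cell's core machinery were marked at rates above the 20.7% of all coding genes. Across 29 such families, 506 of 1112 genes had a peak (45.5%, interval 42.6 to 48.4), and 388 of 796 high-CpG members did (48.7%). All 29 families lay above 20.7%, 25 of them with their whole interval. The others were the USP deubiquitinases, the POLR subunits, the RAB GTPases and the SLC25 carriers. The families were chosen with earlier results of these data known, so these counts are a description and no test. Without promoters of repeated words, USP genes were bound in 23 of 53 cases (43.4%, interval 30.95 to 56.7), against 22.2% of all such promoters. At high-CpG promoters alone, the POLR subunits (23.1%), SLC25 carriers (25.7%) and RAB GTPases (27.9%) lay below the 29.7% of all such promoters. Genes in no family were bound at 19.9% (3414 of 17130) and at 28.0% when of high CpG content.

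**Figure D2:**
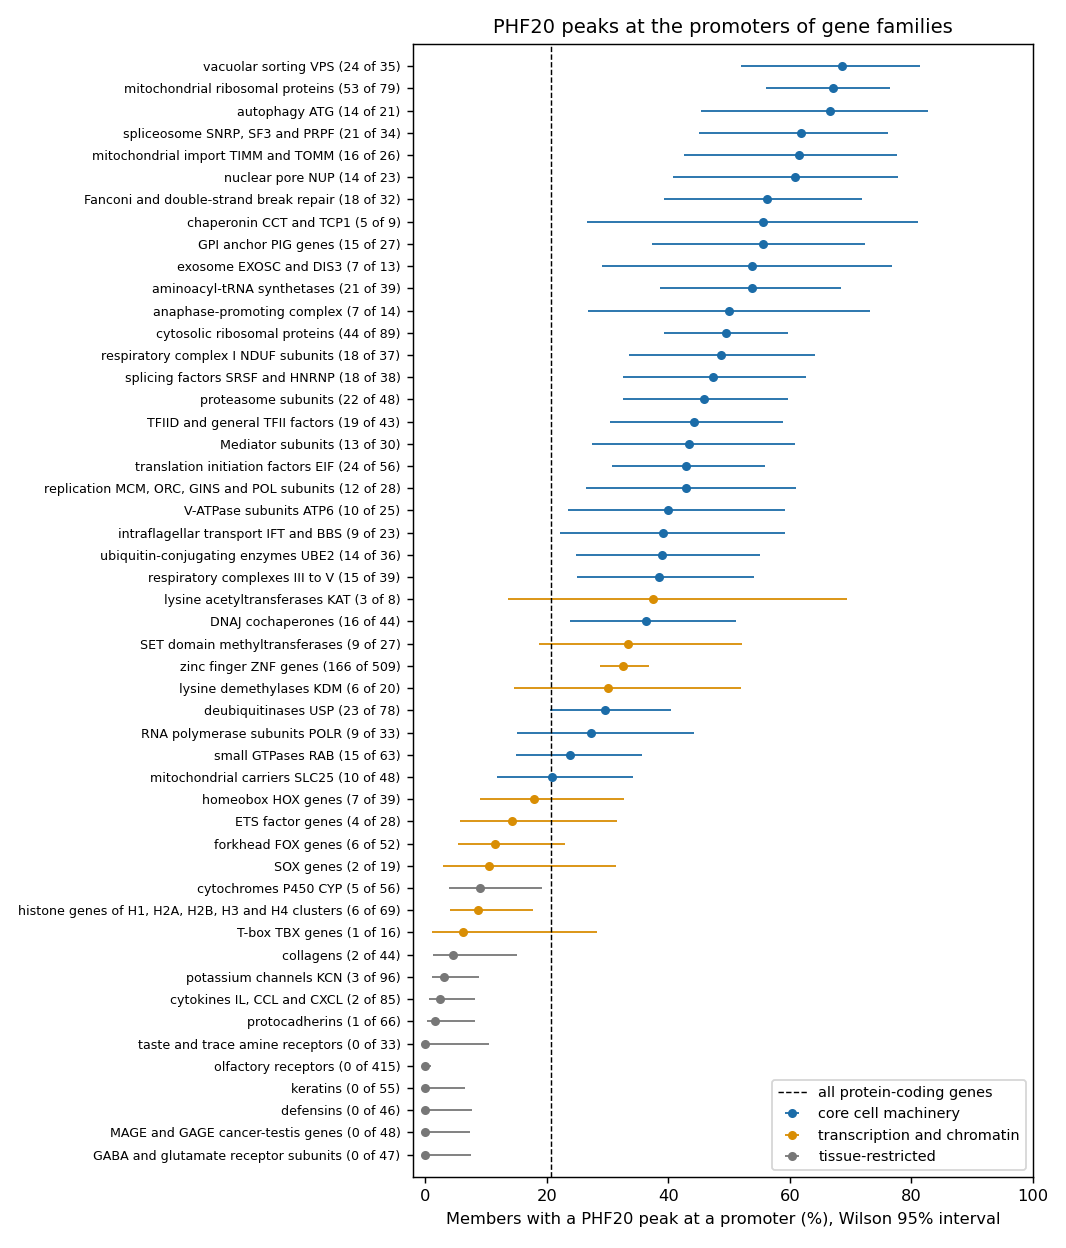
Share of the members of each gene family with a PHF20 peak at a promoter (x, percent, points with Wilson 95% intervals), coloured by kind of family, with the share over all protein-coding genes (20.7%) dashed. Core families lie to the right of the line, up to 68.6%, and tissue-restricted families lie at 8.93% or less.

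Families of trafficking and turnover spanned the range of core families. Of the VPS genes of vacuolar sorting, 24 of 35 were marked (68.6%, interval 52.0 to 81.45), led by VPS33A with a peak of 1558 bp, VPS11 with 1147 bp and VPS54 with 1086 bp, all members of tethering complexes. Of the autophagy genes, 14 of 21 were marked (66.7%), with ATG14 at 1590 bp, ATG3 at 1139 bp and BECN1 at 1127 bp, and with ULK1, ATG9A and ATG4B among the 7 that were not. The V-ATPase, which acidifies lysosomes, had 10 of 25 genes marked, led by ATP6V1D at 1492 bp. Genes of GPI anchor synthesis were marked in 15 of 27 cases, led by PGAP3 at 1379 bp. Of the proteasome genes, 22 of 48 were marked with a median width of 969.5 bp, among them the lid subunit PSMD7 at 2114 bp. The RAB GTPases, at 15 of 63 (23.8%), and the USP deubiquitinases, at 23 of 78 (29.5%), were among the lowest with all members counted. Of the USP genes, 25 had promoters repeated on the chromosomes, and without them the share was 23 of 53 (43.4%).

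Mitochondrial families differed among themselves. PHF20 marked 53 of 79 mitochondrial ribosomal protein genes (67.1%, interval 56.15 to 76.45) with a median width of 963 bp, led by MRPL13 at 1543 bp, MRPS7 at 1524 bp and MRPS18C at 1466 bp. It marked 16 of 26 genes of the TIMM and TOMM import machinery (61.5%), 18 of 37 NDUF genes of complex I (48.6%) and 15 of 39 genes of complexes III to V (38.5%), with UQCRH at 1396 bp and ATP5F1C at 1162 bp. The SLC25 carriers of the inner membrane were marked in 10 of 48 cases (20.8%, 11.7 to 34.3), close to the share over all coding genes.

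Gene expression machinery was marked from the nucleus to the ribosome. Spliceosome genes were marked in 21 of 34 cases (61.8%), with SNRPB2 at 1535 bp and SF3B2 at 1350 bp, and nuclear pore genes in 14 of 23 (60.9%), with NUP37 at 1168 bp. The tRNA synthetase family had 21 of 39 genes marked, led by IARS1 at 1258 bp, and the EIF translation initiation factors 24 of 56, led by EIF2S1 at 1492 bp. Cytosolic ribosomal protein genes were marked in 44 of 89 cases (49.4%), with RPL14 at 1543 bp and RPL24 at 1380 bp. The RNA polymerase subunits were lower, at 9 of 33 (27.3%, interval 15.1 to 44.2), although POLR2B had a peak of 1702 bp. In genome maintenance, 18 of 32 Fanconi and break repair genes were marked, with FANCD2 at 1538 bp and RAD51AP1 at 1561 bp, and 12 of 28 replication genes, with MCM5 at 1362 bp.

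Families of regulators differed in the share marked. Of the ZNF genes, 166 of 509 were marked (32.6%, interval 28.7 to 36.8). The share was 60 of 246 on chromosome 19 (24.4%, 19.4 to 30.1) and 106 of 263 elsewhere (40.3%, 34.6 to 46.3), and among high-CpG ZNF promoters 33.6% and 47.9%. Developmental families lay below 20.7%: 7 of 39 HOX genes were marked (HOXA4, HOXA6, HOXA7, HOXA9, HOXA10, HOXB7 and HOXB13), 6 of 52 FOX genes with FOXM1, a cell cycle factor, at 1466 bp, 2 of 19 SOX genes and 1 of 16 TBX genes. The intervals of all these 4 families reached above 20.7%. Of 28 ETS factor genes, 4 were marked, GABPA (1230 bp), ETV3, ELF2 and ELK4. Replication-dependent histone genes were marked in 6 of 69 cases (8.70%, 4.05 to 17.7), with a median width of 292 bp.

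Tissue-restricted families were almost free of peaks. Across 11 such families 13 of 992 genes had one (1.31%, interval 0.767 to 2.23), and 7 of 115 high-CpG members did (6.09%). Olfactory receptors had 0 of 415, keratins 0 of 55, defensins 0 of 46 and the GABA and glutamate receptor subunits 0 of 47. Part of the 13 were marked through the start of a neighbour or of a distant alternative transcript: the peak of IL5, a cytokine gene, was the 1453 bp peak over the RAD50 start. With the canonical transcript alone, 0.706% of these genes were marked. Of the CYP genes, 5 of 56 were marked (8.93%), among them CYP51A1 of cholesterol synthesis at 436 bp. At high-CpG promoters alone, 4 of 13 CYP genes were marked (30.8%), close to the 29.7% of all such promoters.

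Among the genes of the NSL complex, 5 of 10 had a promoter peak (50%, interval 23.7 to 76.3), and since all 10 have high-CpG promoters, the share to set beside it is the 29.7% of all such promoters, which lies within the interval. The 5 were PHF20L1 (1306 bp), WDR5 (740 bp), a scaffold shared with other complexes, MCRS1 (512 bp), KANSL2 (460 bp) and KANSL3 (412 bp). No peak stood at KAT8, KANSL1, PHF20, OGT or HCFC1, of which KANSL1 has all of its 50-base words on an alternate contig, and OGT and HCFC1 lie on chromosome X. The 3 MSL genes, MSL1, MSL2 and MSL3, subunits of the other complex that holds KAT8, had no peak, and with 3 genes the interval reached 56.15%.

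Noncoding genes were mostly marked through a coding neighbour. Of 18866 lncRNA genes, 1133 had a promoter peak, or 6.01%, and 265 (1.40%) had one that touched no coding promoter. PSMD7-DT, which starts opposite PSMD7, shared its peak of 2114 bp. Among miRNA genes 48 of 1879 were marked, 5 of them away from coding promoters, MIRLET7I (205 bp) among these 5. MIR191 and MIR425 lay under 1 peak of 1452 bp that also touched the promoter of the coding gene DALRD3. Of 942 snoRNA genes 29 were marked (3.08%), and 12 of these were away from coding promoters, SNORA13 (806 bp) among them.

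Small nuclear RNA genes with a peak included those of the major spliceosome. Of 1901 such genes 23 were marked (1.21%), and 13 of these lay away from coding promoters, with RNU5B-1 under 961 bp, RNU5E-1 under 715 bp, RNU5A-1 under 620 bp and RNU4-2 under 580 bp. The RNAs of RNase P and RNase MRP, RPPH1 and RMRP, were both marked, under peaks of 416 and 357 bp that also touched coding promoters. Pseudogenes were rarely marked, at 25 of 10146 processed pseudogenes (0.246%). Unprocessed copies of FRG1, a gene of the chromosome 4 end, were marked on several chromosomes, FRG1HP under 1183 bp, FRG1GP under 1180 bp, FRG1BP under 1134 bp and FRG1EP under 997 bp. How alike these copies are was not measured, and the values are uncertain where reads could be split between them.

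Width went together with position, sequence and PHF20L1. Of the 643 peaks of 200 to 299 bp, 20.5% lay outside promoters, 11.7% covered a canonical coding TSS, 5.60% held the ETS core within 500 bp at their centre and 1.87% overlapped a PHF20L1 peak. Of the 674 peaks from 1000 to below 1500 bp, the same shares were 1.63%, 91.8%, 25.8% and 38.7%. The 49 peaks of 1500 bp or more overlapped a PHF20L1 peak in 73.5% of cases. The smallest width, 200 bp, was held by 75 peaks and equals the read extension set by the study in peak calling. A wide peak covers more bases and so meets a TSS or another peak more readily. The ETS share was counted over the same 500 bp at every width, but position changed with width and was not held fixed.

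**Figure D3:**
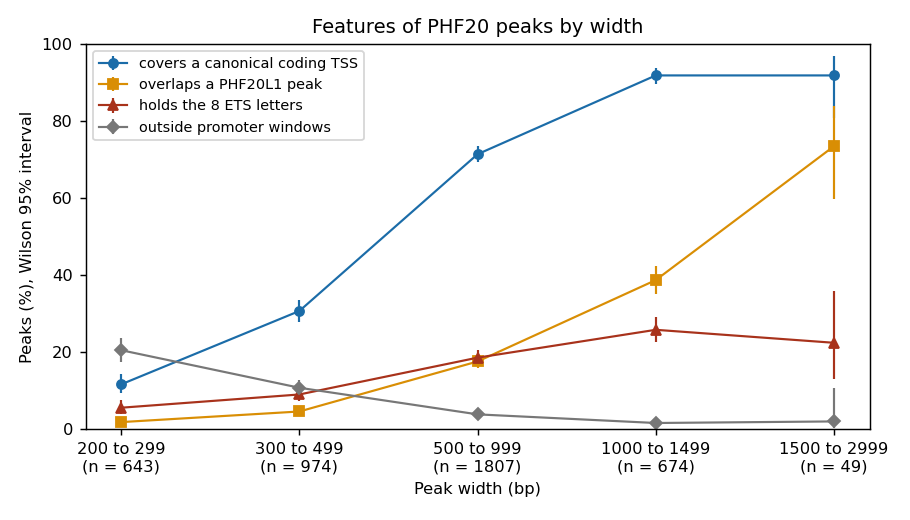
Share of PHF20 peaks (y, percent, points with Wilson 95% intervals) in each width class (x, bp) that covered a canonical coding TSS, overlapped a PHF20L1 peak, held the ETS letters in 500 bp at the centre, or lay outside promoters. The share outside promoters falls from 20.5% to 1.63% between the narrowest class and that from 1000 to below 1500 bp, while the other shares are higher there.

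The widest coding promoter peaks covered genes of many kinds. Besides LAMP1 (2207 bp), PSMD7 and the pairs above, the 20 widest included NRDC, a metalloprotease (1871 bp), DNAJC27, a DNAJ protein (1863 bp), ADO, a thiol dioxygenase (1736 bp), SMARCE1, a subunit of the BAF remodeller (1733 bp), ADAR, an RNA editing enzyme (1697 bp), and PDS5A, a cohesin regulator (1635 bp). Of the PHF20L1 peaks that overlapped a PHF20 peak, 91.6% of 682 pairs lay wholly inside it.

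The ETS core was the motif that differed most between bound and unbound promoters of like CpG content. Among 3124 bound high-CpG promoters 18.0% (interval 16.65 to 19.3) held it within 500 bp at the TSS, against 5.67% (5.17 to 6.22) of 7404 unbound ones. It was present in 15.6% of peak centres and in 6.61% of all coding promoters. Searched over 500 bp on either side, the matches of bound promoters had a median position of -33 bp, before the TSS, and 65.7% of them lay within 100 bp of it, against -28 bp and 58.9% at unbound promoters.

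YY1 and ZBTB33 letters followed. AAGATGGC was found in 9.83% (interval 8.83 to 10.9) of bound and 5.04% (4.56 to 5.56) of unbound high-CpG promoters, and in 5.30% of all coding promoters. At bound promoters 307 held it, 235 on the strand of the gene (76.5%) and 138 across an annotated start codon, as GPATCH3 and COMMD10 did. The share across a start codon was 45.0% (39.5 to 50.5) of the bound promoters with the letters and 42.6% (37.7 to 47.7) of the unbound ones. TCTCGCGA was found in 4.51% (3.84 to 5.30) of bound and 2.23% (1.92 to 2.59) of unbound high-CpG promoters, and in 1.89% of all.

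Other letters differed little or the other way. CACGTG was found in 15.6% of bound and 12.3% of unbound high-CpG promoters and 10.95% of all, and the related CATGTG in 7.36% and 6.93%, and 12.2% of all. The Sp1 box GGGCGG was less frequent when bound, at 88.8% against 93.2%, 69.5% of all promoters holding it, with 440.5 against 570.0 matches per 100 promoters over 500 bp on either side. The CCAAT box was found in 37.0% and 38.2% (43.4% of all), the NRF1 letters GCGCATGC in 7.39% and 6.43% (4.65%), TATAAA in 3.84% and 4.75% (11.8%) and TGACGTCA in 4.71% and 3.65% (2.83%). The letters of ZNF143, ACTACAAT, were found in 0.768% and 0.729% (0.809%). A match describes the sequence and is no evidence that the factor was present.

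**Figure D4:**
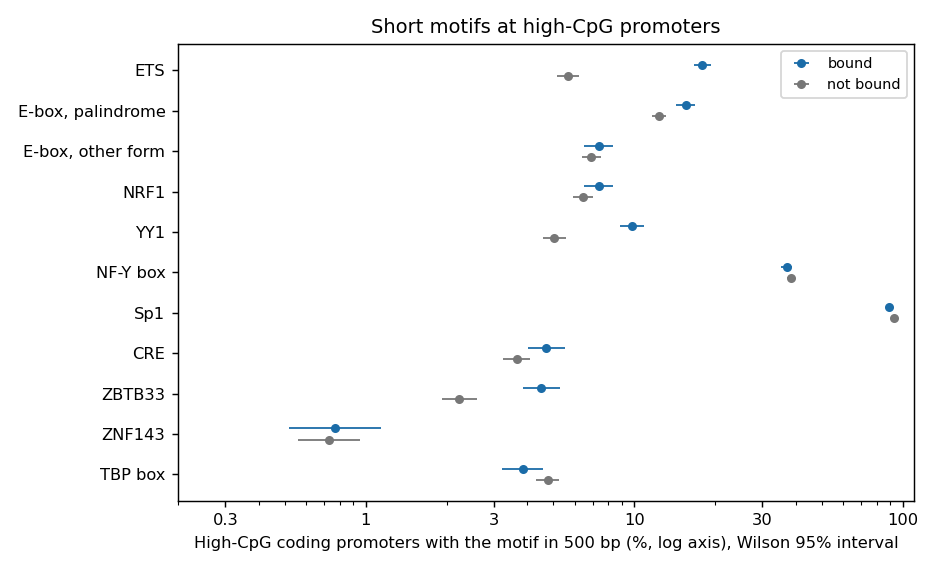
Share of high-CpG coding promoters with each motif in 500 bp at the TSS (x, percent on a log axis, points with Wilson 95% intervals), for promoters with and without a PHF20 peak. The points of the ETS core stand farthest apart, at 18.0% and 5.67%, followed by those of ZBTB33 and YY1.

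Chromosome X held few marked promoters. Among high-CpG promoters without repeated words, 25 of 299 on X had a peak (8.36%, interval 5.73 to 12.05), while the autosomes ran from 20.7% on chromosome 18 to 39.0% on chromosome 3. All coding genes of X together gave 43 of 859 (5.01%). The widest X peaks stood at LAS1L, a ribosome biogenesis factor (1143 bp), KDM5C, a histone demethylase (1018 bp), and YIPF6, a Golgi protein (931 bp). The copy number of each chromosome in these cells was not measured, and its part in these shares was not tested.

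**Figure D5:**
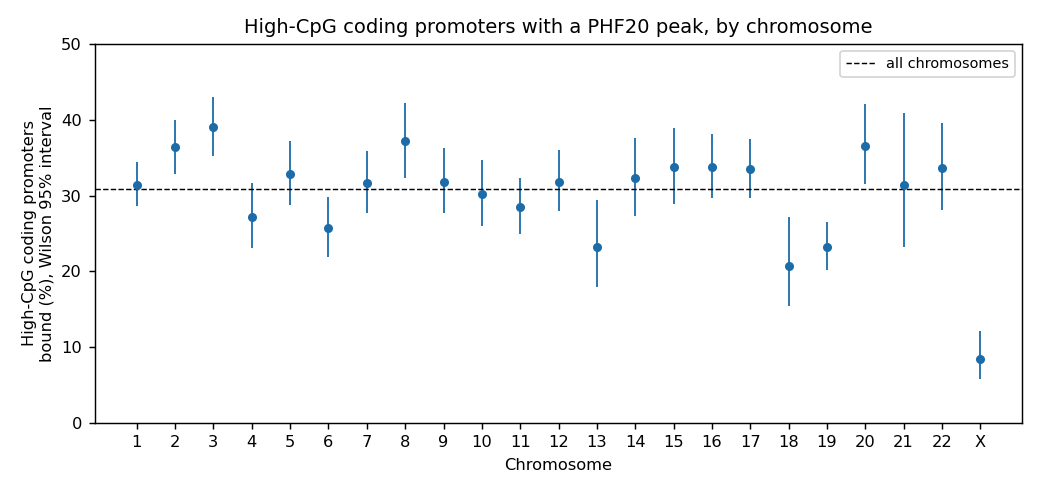
Share of high-CpG coding promoters without repeated 50-base words that had a PHF20 peak (y, percent, points with Wilson 95% intervals) on each chromosome (x), with the share over all chromosomes dashed at 30.8%. Chromosome Y, with 0 of 3 such promoters bound, is not drawn. Chromosome X stands below the autosomes at 8.36%, and chromosomes 18, 13 and 19 are the lowest autosomes.

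On chromosome 19, which had the most peaks per Mb (3.21), the share of marked genes was among the lower ones. High-CpG promoters without repeated words were bound at 23.2% (155 of 668, interval 20.2 to 26.55), and those outside the ZNF family at 20.7% (112 of 540, 17.5 to 24.4). Chromosomes 2 and 3 had the highest shares of coding genes with a peak, 27.4% and 27.5%.

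Peaks were spread unevenly along the chromosomes. Of 3102 windows of 1 Mb, 1535 held a peak and 29 held 10 or more, which together took 355 peaks (8.56%). Among the 662 windows with 10 or more coding genes, 65 held no peak. The fullest windows lay at 144 to 145 Mb of chromosome 8 (24 peaks, 27 of 46 coding genes), with HSF1, the heat shock factor, MAF1, a repressor of RNA polymerase III, and RECQL4, and at 30 to 31 Mb of chromosome 16 (21 peaks, 17 of 47 genes), with SETD1A, SRCAP and the zinc fingers ZNF688, ZNF689 and ZNF768. In a window at 49 to 50 Mb of chromosome 3, 17 of 38 genes were marked under 16 peaks, with QRICH1, USP4, USP19 and WDR6 among them. The longest row of adjacent marked coding genes had 8 members, from DCTN1 to WBP1 on chromosome 2, counting read-through genes that share starts.

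Unmarked stretches were of different kinds. The 184 coding genes from GPX6 to BAK1, at 28515793 to 33580276 of chromosome 6, the major histocompatibility region, had 0 PHF20 and 0 PHF20L1 peaks, and 179 of them had most of their words on an alternate contig, including all 45 with a high-CpG promoter. At 54 to 55 Mb of chromosome 19, 39 of 39 coding genes had such copies, among them RPS9, PRPF31 and NDUFA3, and none was marked. On X the row of 207 unmarked genes from RHOXF2 to TMEM187 held 73 high-CpG promoters without repeated words, LAMP2, XIAP, HPRT1 and THOC2 among them. The row of 92 from YY2 to CDK16 held 44 such promoters. On autosomes the unmarked row with most such promoters, 28 of them, ran from MMP21 toward the end of chromosome 10 over 7.60 Mb, with BCCIP, MKI67 and TUBGCP2, and the next, with 23, from TGIF1 to GNAL on chromosome 18 over 8.24 Mb, with NDUFV2 and VAPA among them.

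Peaks outside promoters had the lowest median width, 331 bp, and mostly lay far from coding starts. Of the 319, 133 (41.7%) lay 20000 to 100000 bp from the nearest canonical coding TSS and 67 (21.0%) farther away. They held the ETS core in 5.96% (interval 3.85 to 9.12) and the Sp1 box in 48.9% of cases. The widest of them, 2839 bp at 16684 bp from CD300LB, was also the widest of the list, had 48% GC and a CpG ratio of 0.427, and overlapped a PHF20L1 peak. Among the next, 1 of 1495 bp at 18592 bp from ZNF487 had 71.6% GC and a CpG ratio of 1.004, 1 of 1331 bp stood at -56792 bp, upstream of ZBTB38, and 1 of 1354 bp stood at 221771 bp from INSIG2. A PHF20L1 peak overlapped 8.15% of the peaks outside promoters and 16.5% of those at coding promoters.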

How the data were processed

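HA ChIP-Seq and input libraries of U2OS cells with 3xHA PHF20 were mapped by the authors to hg38 with Bowtie 1.1.2, keeping uniquely placed and deduplicated reads, and peaks were called against input with MACS2 2.2.7.1 (versions per the submitters' processing notes). The final list holds the best replicate's peaks wherever the other replicate also had one, without blacklisted regions. Per the paper, calls used a p-value limit, which was looser in the other replicate than in the best one. The deposited values are positions (start and end in bp), with no count of reads, score or depth, so a width is that of the best replicate.

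Coordinates are on hg38, counted from 1. Peaks were placed on GENCODE release 44 by an overlap of at least 1 bp with Python 3.11.15, numpy 2.4.6, pandas 2.3.3, scipy 1.17.1, pysam 0.24.0, samtools 1.23.1 and matplotlib 3.10.9, and the steps were tested on simulated data. Motifs were counted on both strands, and CpG classes over 500 bp at the TSS. Families were read from gene symbols. Genes named are those of the widest peaks, the family members with the widest peaks or without one, the noncoding genes with the widest peaks, the fullest windows, the NSL genes and the widest divergent pairs. Example genes of repeated promoters, of chromosome X, of rows of genes and of peaks outside promoters were picked after their values were seen. So were ULK1, ATG9A, ATG4B, CYP51A1, IL5, ELK4, MIRLET7I and the lower HOX genes. Members, lists and rules were chosen with earlier results of these data known. The search for repeated 50-base words and the rule of a peak over the TSS were added after the data were seen.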

Additional observations from a re-analysis of the deposited data

How the results depend on the processing

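The list joins the replicates and gives no depth or height, and results without 1 replicate were not computed. No paired analysis was possible because the list holds no value per replicate. A missing peak does not show that PHF20 was absent. The share of peaks at promoters, 92.3%, was 89.0% with canonical transcripts, 85.9% with coding genes, 91.3% with 500 bp on both sides and 94.7% for peaks of at least 300 bp. The 4148 bound coding genes became 2673 with a peak over the canonical TSS. Their share, 20.7%, was 19.1% with canonical transcripts, 18.6% for peaks of at least 300 bp and 22.2% without repeated promoters. The 1133 lncRNA genes became 265 without coding neighbours. The median peak position of 37.5 bp was 4 bp with any transcript and 50 bp at single promoters. Divergent promoters with a coding partner were bound at 33.2% under the rule of a peak over the TSS. Single promoters, at 16.4%, were bound at 17.0% with 500 bp, at 18.0% with coding neighbours only, at 10.2% under the TSS rule and at 17.7% without repeated promoters. High-CpG promoters were bound at 30.8% without repeated promoters. Core families, at 45.5%, were bound at 42.2% for peaks of at least 300 bp and at 48.5% without repeated promoters. With peaks within 1000 bp merged, 19 windows held 10 or more peaks in place of 29, and the median width was 664 bp in place of 599 bp. Divergent promoters stayed above single ones, and core families above all coding genes, under each alternative run for them.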

Other observations

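The list held 3 peaks on chromosome Y, of 205, 326 and 215 bp, starting at 56727987, 56734625 and 56763472 (hg38), at 36.6% to 37.2% GC and with none over a PHF20L1 peak. They touched no coding promoter. The paper removed chromosome Y genes from its U2OS expression values. Whether these cells hold a chromosome Y, or whether the reads were placed there correctly, was not tested.

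Chromosome X held 6 of the 723 PHF20L1 peaks, beside 44 of the 4147 PHF20 peaks and 859 of the 20033 protein-coding genes. PHF20L1 and PHF20 peaks overlapped in 682 pairs, so the counts of peaks on X are not independent.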
